A study of Bos taurus with 8 samples.

Results

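Interferon-stimulated genes were followed in the udder of 4 lactating Holstein cows. A biopsy of full mammary gland, 12 h after the last milk removal, and a biopsy of empty gland, at 0 h, right after milking, were available for every animal. All groups share the breed, the tissue and the lactating state, and the full gland was compared with the empty gland of the same cow. Each sample is 1 piece of whole tissue, and the sources used here do not say in which order the biopsies were taken, from which part of the udder, or whether the cows were pregnant. The genes were a named list of 8: ISG15, MX1, MX2, IFI6, RSAD2, IFIT2, IRF1 and OAS1Y. Members were kept where a probe set, a group of short array probes for 1 transcript, carried their symbol and no other. That left 6 genes with 1 probe set each, among 9155 genes and 24016 probe sets. The only OAS1Y probe set was shared with OAS2 and was left out, and IRF1 was named by no probe set in the annotation and was not analysed here.

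Interferons are secreted when cells sense viral or other foreign nucleic acid. Type I and type III interferons act through receptors and the kinases JAK1 and TYK2 to switch on a large set of antiviral genes. Type II interferon, made by T and natural killer cells, acts on an overlapping set rich in antigen presentation genes. In cattle the same antiviral genes are also known to be induced in uterus and blood leukocytes by interferon tau from the early conceptus.

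The full glands of cows 2 and 4 stood apart, and correlated with the remaining arrays at a median r of 0.969 and 0.975, against 0.986 to 0.987 for the 6 others. The 5′ minus 3′ signal of 5 control transcripts, which drops when RNA is broken, averaged -1.91 log2 in the full gland of cow 2 and -1.22 to -0.76 in the other 7 arrays. Luminal epithelial markers were measured for all 8 listed genes, with a summed level of 16.16 to 16.20 log2 in full and 16.11 to 16.22 log2 in empty gland. Such a sum is set mostly by the brightest genes. With each of the 8 genes centred on its mean over the arrays and weighted equally, the list averaged 0.46 in the full gland of cow 4 and 0.30 in that of cow 2, against -0.28 to -0.03 in the other 6 arrays.

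No member passed the comparison of full with empty gland. All 6 means were lower in full gland, by 0.04 to 0.41 log2, but no member went one way in all 4 cows. In limma with cow as a block 0 of 6 passed (adjusted p = 0.993 for each over all 24016 probe sets), and none had an unadjusted p under 0.05. Over the whole array 0% of probe sets passed, 2.5% had an unadjusted p under 0.05, 50.1% had a lower mean in full gland and 10.2% went one way in all 4 cows. The median difference was -0.06 log2 over the 6 members and -0.00027 over all probe sets. Without cows 2 and 4, whose full arrays stood apart, the differences were -0.31 for ISG15, -0.26 for RSAD2, -0.19 for IFI6, -0.15 for MX1, -0.06 for MX2 and 0.01 for IFIT2, and again none passed.

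ISG15 encodes a ubiquitin-like protein that is attached to other proteins and is also released from cells. ISG15 was at 6.86, 7.25, 6.87 and 7.48 log2 in the full glands of cows 1 to 4, against 7.39, 8.46, 6.96 and 7.28 log2 in their empty glands. The highest array was the empty gland of cow 2, and the ranges of the states overlapped. Full minus empty, cows 1 to 4 differed by -0.54, -1.21, -0.08 and 0.19. The mean was 7.11 ± 0.30 in full and 7.52 ± 0.65 log2 in empty gland (SD, n = 4 each). Their difference of -0.41 ± 0.23 log2 (limma's moderated SE, n = 4 cows, adjusted p = 0.993) had a 95% interval of -0.97 to 0.16. Without cow 2 it was -0.14, and the part of the low 5′ minus 3′ signal of that cow's full array in this difference was not tested.

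MX1 encodes a dynamin-like GTPase that blocks the replication of several RNA viruses. Its level was 6.75, 7.57, 6.91 and 8.08 log2 in the full glands of cows 1 to 4, against 7.15, 8.09, 6.81 and 7.46 log2 in the empty glands. Cows 2 and 4 were above cows 1 and 3 in either state, whereas full was below empty in cows 1 and 2 and above it in cows 3 and 4. The mean difference was -0.05 ± 0.20 log2 (SE, n = 4 cows), with a 95% interval of -0.54 to 0.43. Its sign turned without cow 1 (0.06) and without cow 2 (0.11).

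MX2, the second bovine Mx protein, is the direct neighbour of MX1 in the RefSeq gene order of the ARS-UCD2.0 assembly. It was at 5.71, 5.60, 5.68 and 5.69 log2 in full glands, against 5.71, 5.83, 5.79 and 5.57 log2 in empty glands. The 8 arrays spanned 0.25 log2, and the probe set's mean level was above that of only 14.4% of probe sets, so this signal was dim and nearly flat. The difference was -0.06 ± 0.08 log2 (SE, n = 4 cows), with a 95% interval of -0.26 to 0.15. Without cow 2 it was 0.00015.

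RSAD2 encodes viperin, a radical SAM enzyme that makes a chain-terminating nucleotide. It had 7.33, 7.52, 7.53 and 8.22 log2 in full glands, against 8.00, 8.15, 7.38 and 7.88 log2 in empty glands. The difference within a cow was -0.68 and -0.64 in cows 1 and 2, but 0.16 and 0.34 in cows 3 and 4. The mean difference was -0.20 ± 0.20 log2 (SE, n = 4 cows), with a 95% interval of -0.70 to 0.29, and was -0.05 without cow 1 and -0.06 without cow 2.

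IFI6 encodes a small membrane protein known in human cells to restrain cell death. Its levels were 7.53, 7.52, 6.92 and 7.96 log2 in full glands, against 7.78, 7.70, 7.05 and 7.57 log2 in empty glands. Cow 3 was the lowest animal in either state, and its 2 arrays lay below all 6 others. Full was below empty by 0.13 to 0.25 log2 in cows 1, 2 and 3 and above it by 0.39 log2 in cow 4, for a mean difference of -0.04 ± 0.12 log2 (SE, n = 4 cows, 95% interval -0.35 to 0.26). The sign turned without cow 1 (0.02) and without cow 2 (0.0029).

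IFIT2 encodes a protein of tetratricopeptide repeats that acts on viral and cellular RNA. It was at 6.68, 6.19, 6.38 and 6.47 log2 in full glands, against 6.44, 6.38, 6.60 and 6.53 log2 in empty glands. Unlike the members above it was higher in full gland in cow 1 (0.24) and lower in cow 4 (-0.06). The mean difference was -0.06 ± 0.10 log2 (SE, n = 4 cows), with a 95% interval of -0.30 to 0.19.

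**Figure D1:**
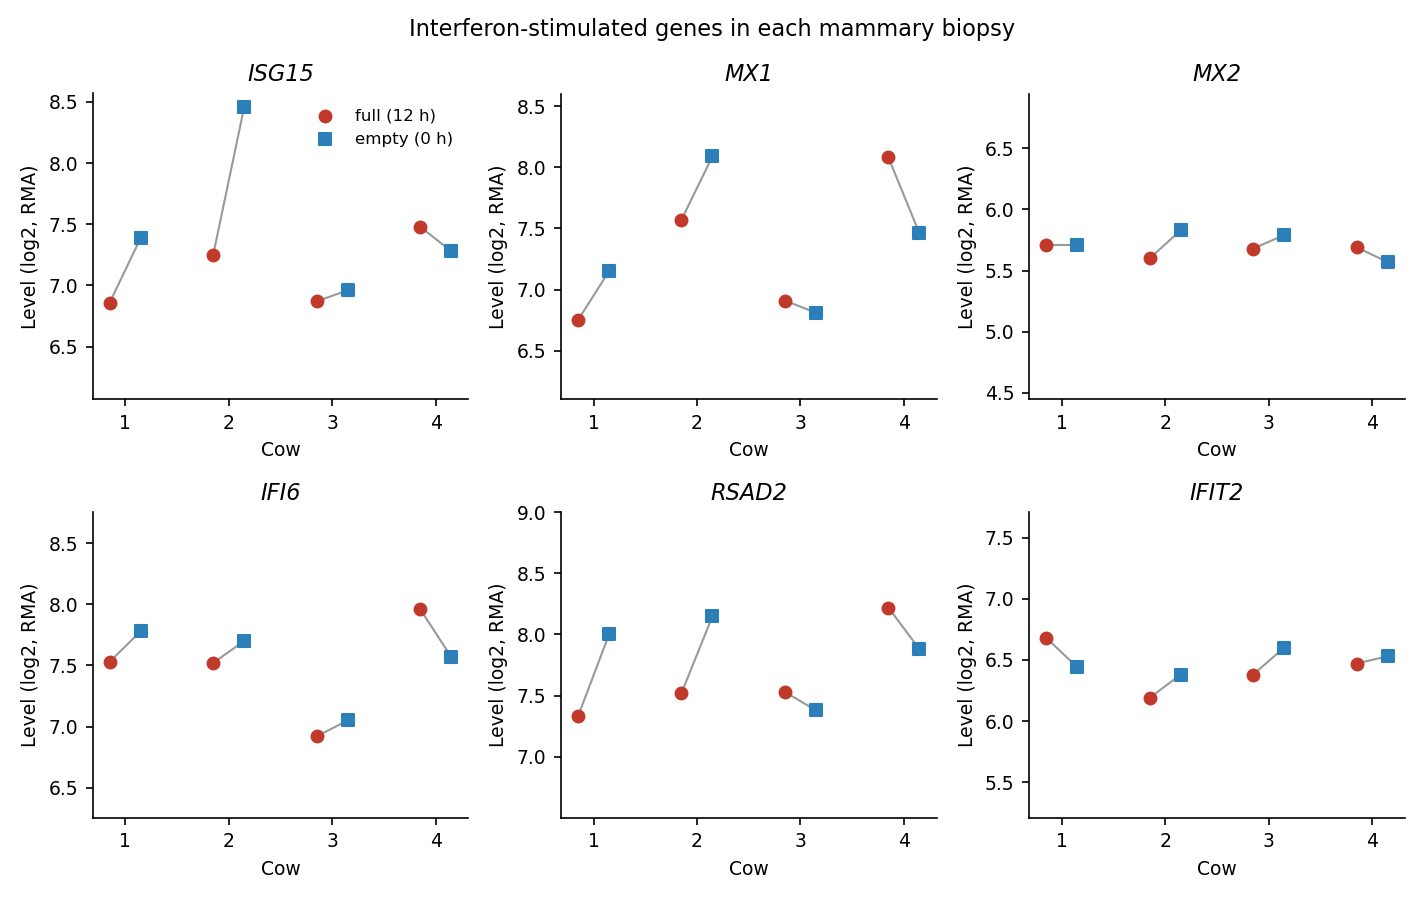
Log2 level (RMA, y axis, every panel spanning the same 2.5 log2 units) of the 6 interferon-stimulated genes by cow (x axis), with red circles for full gland, blue squares for empty gland and a grey line joining the samples of a cow. ISG15 in cow 2 shows the widest gap, at 7.25 in full and 8.46 in empty gland, and MX2 is nearly flat.

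**Figure D2:**
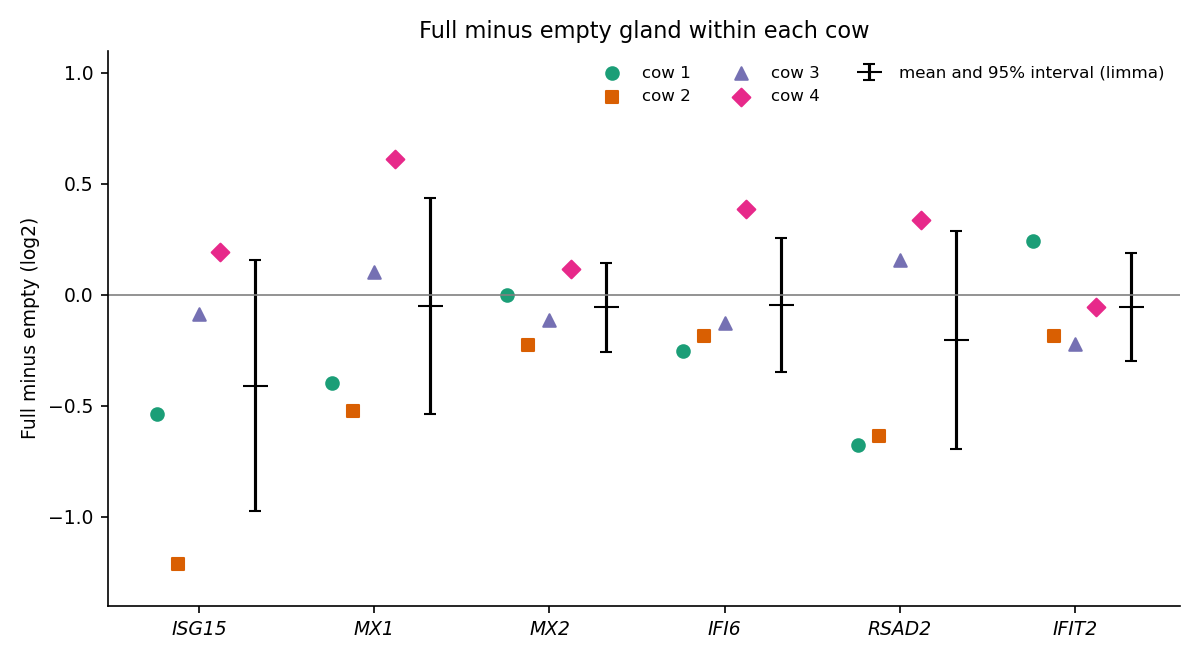
Full minus empty difference in log2 (y axis) for each member (x axis), with 1 symbol per cow and, in black, the mean with limma's 95% interval. Every interval spans 0, and cow 4 (pink diamonds) is above 0 for 5 of the 6 members.

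Counted by cow, the directions differed between animals. Of the 6 members, 5 were lower in full gland in cow 1 (median -0.32 log2), all 6 in cow 2 (-0.38) and 4 in cow 3 (-0.10), while 5 were higher in cow 4 (0.27). Over the whole array 58.3%, 50% and 48.9% of probe sets were lower in full gland in cows 1, 2 and 3, and 53.5% were higher in cow 4. With 1 full and 1 empty array per cow, whether the effect of milk accumulation differs between cows cannot be tested. Across the 8 arrays, which share 4 animals, the 6 pairs among ISG15, MX1, IFI6 and RSAD2 had Pearson correlations of 0.57 to 0.82. The 9 pairs with MX2 or IFIT2 had correlations of -0.48 to 0.40. These 4 genes were grouped after their values were seen, and the correlations are a description.

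Markers of several cell types moved with the full gland of cow 4, where 5 of 6 members were also higher than in its empty gland. Myoepithelial markers (7 of 7 measured) had a median full minus empty difference of 0.67 log2 in cow 4 and -0.0044, 0.11 and 0.10 in cows 1 to 3, with summed levels of 12.97 to 14.00 log2 in full and 12.99 to 13.42 log2 in empty gland. Fibroblast markers (7 of 7 measured) had a median full minus empty difference of 0.65 log2 in cow 4 and -0.28, 0.15 and -0.09 in cows 1 to 3. Their summed level was 14.14 to 15.27 log2 in full and 14.23 to 14.77 log2 in empty gland. Myeloid markers (8 of 10 measured) differed by 0.81 in cow 4 and by -0.33, 0.26 and -0.13 in cows 1 to 3, with summed levels of 11.66 to 12.34 log2 in full and 11.83 to 11.99 log2 in empty gland. T and natural killer cell markers (12 of 12 measured) differed by 0.44 in cow 4 and by -0.17, 0.36 and -0.06 in cows 1 to 3, with summed levels of 11.76 to 12.37 log2 in full and 12.24 to 12.52 log2 in empty gland. Sums and medians did not always go the same way. In cow 2 the sum was lower in full gland for T and natural killer cell markers (11.76 against 12.24) and myeloid markers (11.80 against 11.99). In cow 4 both sums were higher in full gland (12.33 against 12.26, and 12.34 against 11.83). Plasmacytoid dendritic cell markers (3 of 6 measured) differed by 0.16 in cow 4 and by -0.09, -0.16 and 0.12 in cows 1 to 3, with summed levels of 10.01 to 10.36 log2 in full and 9.87 to 10.21 log2 in empty gland. In cow 4 the median difference was 0.30 for B and plasma cell markers (5 of 8 measured), 0.17 for skeletal muscle markers (3 of 5) and 0.13 for luminal epithelial markers. It was only 0.06 for endothelial markers (5 of 5 measured) and -0.04 for adipocyte markers (3 of 4). Medians and means ranked the lists differently. By the mean of centred genes the luminal list was at 0.46 in the full and -0.04 in the empty gland of cow 4. The T and natural killer cell list was at 0.25 in the full and -0.14 in the empty gland of that cow. No marker was at 0, since the lowest value of any probe set was 4.98 log2. Their part in the members' differences was not tested, and in whole biopsies a change in cell number and a change in RNA per cell cannot be told apart.

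**Figure D3:**
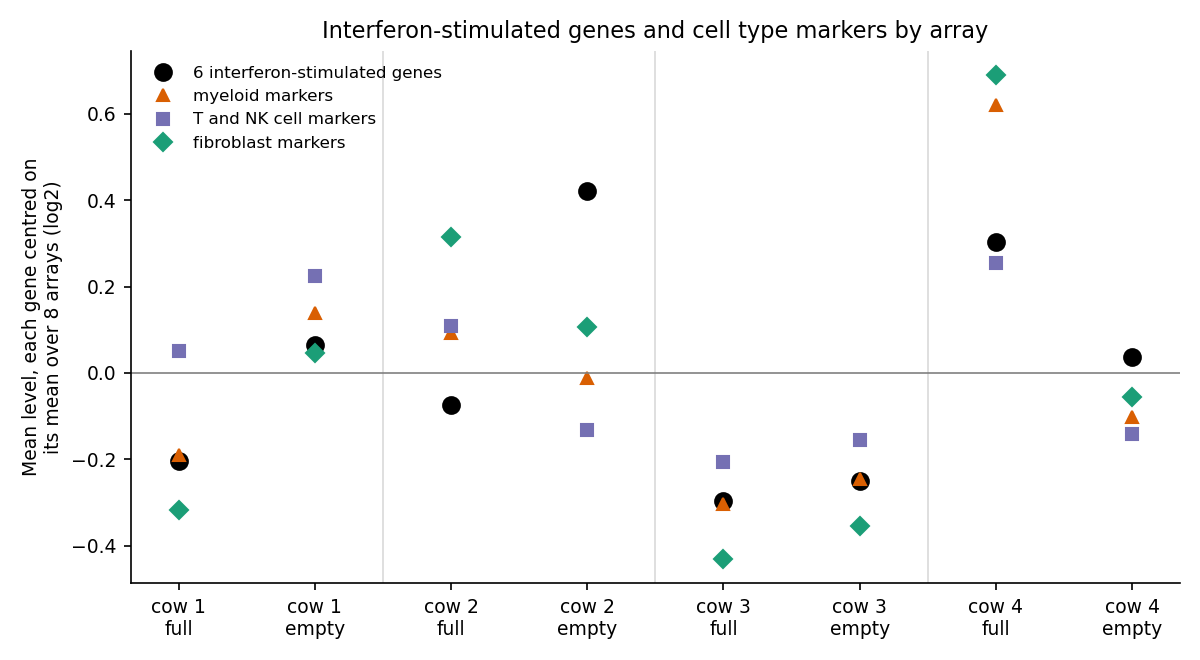
Mean level of the 6 interferon-stimulated genes (black) and of 3 marker lists, each gene centred on its mean over the 8 arrays (y axis, log2), by array (x axis). The members are highest in the empty gland of cow 2 (0.42) and the full gland of cow 4 (0.30), and lowest in the full (-0.30) and empty (-0.25) glands of cow 3, while the fibroblast and myeloid markers are highest in the full gland of cow 4.

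Cow means of 4 members lay further apart than those of most probe sets, although no member passed the test between cows. Cow means, each over the full and the empty array, spanned 0.97 log2 (1.96-fold) for MX1, 0.94 for ISG15, 0.78 for IFI6, 0.60 for RSAD2, 0.28 for IFIT2 and 0.10 for MX2. The median over all probe sets was 0.28. Several of these spans rested on 1 animal, although a span over 3 cows can only be equal or smaller. Without cow 3 the span was 0.15 for IFI6, without cow 2 it was 0.46 for ISG15 and 0.07 for IFIT2, and without cow 4 it was 0.38 for RSAD2 (0.39 without cow 3) and 0.02 for MX2, while MX1 kept at least 0.88. The SD over the 8 arrays was above that of 96.9% of probe sets for MX1, 96.5% for ISG15, 88.9% for RSAD2 and 88.6% for IFI6, but of 45.6% for IFIT2 and 15.8% for MX2. That SD mixes the spread between animals with the spread within them, which was also wide. Over the 4 cows, full minus empty varied more, by its SD, than in 96.8% of probe sets for ISG15, 94.2% for RSAD2, 94.0% for MX1 and 74.2% for IFI6. The difference within cow 2 for ISG15 (-1.21) and within cow 1 for RSAD2 (-0.68) was larger than the span between cow means. Cow 3 had the lowest mean for 4 of the 6 members, namely ISG15, MX1, IFI6 and RSAD2, and cow 2 or cow 4 had the highest mean for the same 4 genes.

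In limma's F-test between cows 0 of 6 members passed, with adjusted p-values of 0.249 (IFI6) to 0.909 (MX2). At an unadjusted p under 0.05 there were 2, IFI6 (0.0162) and MX1 (0.0234), while ISG15 had 0.112 and RSAD2 0.286. Over the whole array 0.437% of probe sets passed and 14.8% had an unadjusted p under 0.05. The order of the cows for MX1 was cow 2 (7.83 log2), cow 4 (7.77), cow 1 (6.95) and cow 3 (6.86), and for IFI6 cow 4 (7.76), cow 1 (7.65), cow 2 (7.61) and cow 3 (6.99). Set against the mean of the other 3 cows, none of the 24 differences of a member in 1 cow passed in limma, where 0.142%, 0.196%, 0.229% and 0.221% of all probe sets passed for cows 1 to 4. The nearest was IFI6 in cow 3, at 6.99 against 7.68 log2 in the other cows, a difference of -0.69 ± 0.14 (SE, adjusted p = 0.198). No cow was therefore shown to differ from another for any member, and pairs of cows were not tested.

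The rest of the interferon pathway was read from 5 gene lists, with the brightest probe set of each gene. Of 73 genes measured, 39 were higher and 34 lower in full gland. None passed the state comparison in limma and 1 had an unadjusted p under 0.05, where 0% and 2.8% of all 9155 genes did. Their median difference was 0.02 log2, against -0.0036 for all genes. In cows 1 to 4, 24.7%, 50.7%, 47.9% and 76.7% of the 73 were higher in full gland, against 36.9%, 54.2%, 44.3% and 53.2% of all genes. In the F-test between cows 28.8% of the 73 had an unadjusted p under 0.05, beside 16.9% of all genes. By list this was 0% of ligands and receptors, 28.6% of sensors, 10% of signalling genes, 35.5% of type I effectors and 41.2% of type II genes.

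Ligands and receptors (8 of 21 listed genes measured) were 4 higher and 4 lower. IFNAR2, a chain of the type I interferon receptor, was the gene with the unadjusted p under 0.05 (0.0394). It was at 8.62 ± 0.34 in full and 8.30 ± 0.22 log2 in empty gland (SD, n = 4 each), higher in 3 of 4 cows by 0.32 ± 0.12 on average (SE, adjusted p = 0.993 in limma), and by 0.10 without cows 2 and 4. IL10RB, a chain of the type III receptor, differed by 0.15. In the F-test between cows the smallest p-values of this list belonged to IFNAR2, IFNGR2, a chain of the type II receptor, and IFNAR1, the other type I chain, and none passed (smallest adjusted p = 0.377). IFNGR2 spanned 0.32 log2 by its brightest probe set and 0.87 by its other one, which did not pass either. With the mean of its 2 probe sets it spanned 0.42 (adjusted p = 0.292 in the F-test).

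Among the sensors of foreign nucleic acid (7 of 20 measured) 3 were higher and 4 lower. The endosomal receptor of double-stranded RNA, TLR3, differed by 0.34 and its 3 probe sets went the same way, but by cow the difference was -0.09, 0.99, -0.20 and 0.67. IRF3, the factor that switches on interferon genes, was lower in all 4 cows by 0.13 on average, without passing. Between cows DHX58, a regulator of RNA sensing, spanned 0.70 log2 (adjusted p = 0.218) with cow 3 lowest, and IKBKE, a kinase upstream of IRF3, spanned 0.60. Without cow 3 DHX58 spanned 0.29, and without cow 4 IKBKE spanned 0.19. The other IKBKE probe set spanned only 0.21. Signalling genes (10 of 15 measured) were 7 higher and 3 lower, with IRF7 at 0.19 and JAK1 at -0.09. For IRF7, the interferon-induced factor that amplifies the response, only 1 of 3 probe sets went that way. Between cows the repressor IRF2 spanned 0.89, JAK1 0.48 and IRF9, a transcription factor of the type I response, 0.46, and none passed. Each of these spans rested on 1 animal. IRF2 spanned 0.25 without cow 2, which was at 6.70 log2 in full and 7.44 log2 in empty gland. Without cow 3 the span was 0.11 for JAK1 and 0.13 for IRF9.

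Antiviral effectors of the type I response (31 of 49 measured) were 15 higher and 16 lower, with a median of -0.0047. IFI44L, a feedback regulator in human cells, was higher in full gland by 0.34 ± 0.15 log2 and PARP12, an ADP-ribosyltransferase, by 0.36 ± 0.19 (SE, n = 4 cows), each in 3 of 4 cows and neither passing, and by 0.12 and 0.0079 without cows 2 and 4. With the mean of its 4 probe sets PARP12 differed by 0.16. By cow IFI44L differed by 0.31, 0.86, -0.06 and 0.26, so that in cow 2 it was higher in full gland where all 6 members were lower. Between cows 11 of the 31 genes had an unadjusted p under 0.05 and none passed. IFI44L spanned 1.28 log2 (cow 2 highest, adjusted p = 0.186), the ubiquitin ligase TRIM25 0.63 (adjusted p = 0.178) and HERC5, known in human cells as the ligase that attaches ISG15, 0.46. Without cow 2 the span was 0.41 for IFI44L and 0.37 for TRIM25, and without cow 3 it was 0.27 for HERC5.

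Genes typical of the type II response (17 of 26 measured) were 10 higher and 7 lower, with ICAM1, an adhesion molecule, at 0.23 and PSMB9, an immunoproteasome subunit, at 0.19. The PSMB9 mean rested on cow 4, where the difference was 0.62, and was 0.05 without that cow. Between cows 7 of the 17 had an unadjusted p under 0.05. GBP5, a guanylate-binding protein of host defence, was the 1 pathway gene to pass the F-test (adjusted p = 0.0321 in limma, where 0.481% of all genes passed). Its brightest probe set was at 8.25, 6.86, 8.52 and 7.14 log2 in the full glands of cows 1 to 4, against 8.44, 7.08, 8.53 and 6.81 log2 in the empty glands. Cows 1 and 3 were thus above cows 2 and 4 in either state, by up to 1.55 log2 (2.94-fold) between cow means, while full and empty differed by -0.02 on average. Of its other 3 probe sets 2 showed the same split, spanning 1.17 and 1.11 (adjusted p = 0.0901 and 0.0737), and the dimmest spanned 0.14 (adjusted p = 0.676). The call was lost without cow 1 (span 1.55, adjusted p = 0.105), cow 3 (span 1.38, adjusted p = 0.204) or cow 4 (span 1.55, adjusted p = 0.0785) and with the mean of the 4 probe sets (span 0.95, adjusted p = 0.0700), and related guanylate-binding genes may share these probes. Cow 3, highest here, was the lowest cow for 4 of the 6 members and the highest for MX2. CXCL10, a chemokine for T cells, spanned 1.22 (adjusted p = 0.250) with cow 4 highest and cow 3 lowest, and SECTM1 0.48 with cow 3 highest. Without cow 4 CXCL10 spanned 0.57, and without cow 3 SECTM1 spanned 0.39.

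**Figure D4:**
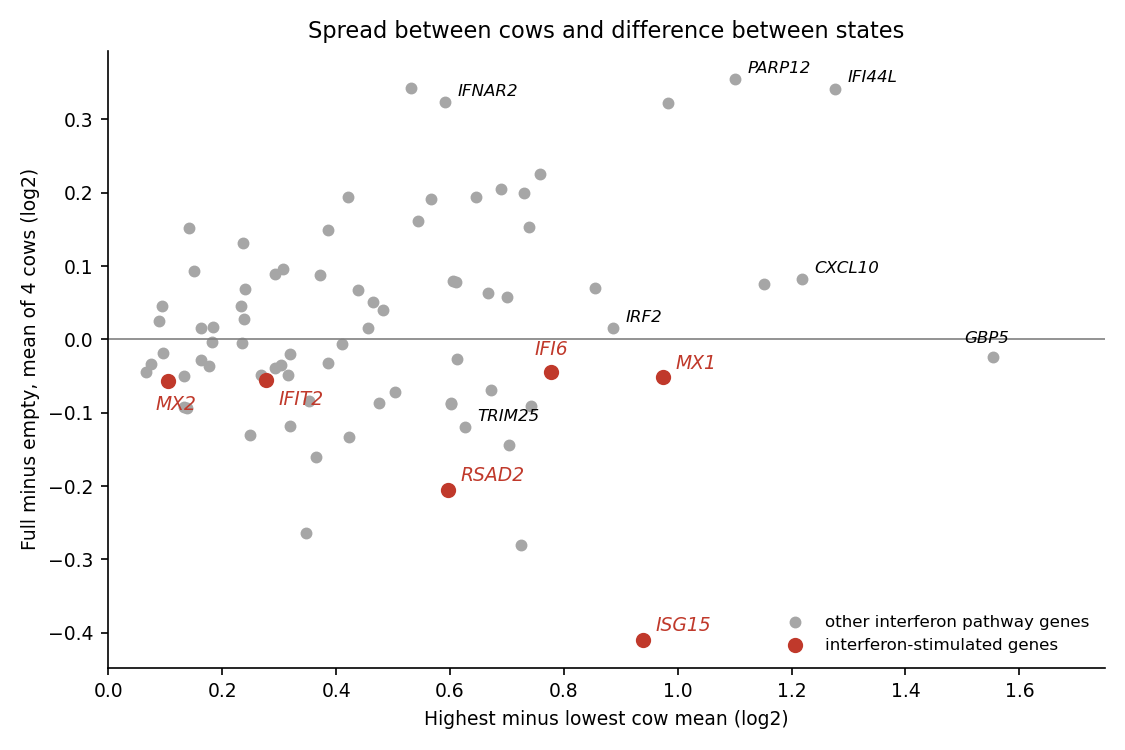
Mean full minus empty difference (y axis, log2) against the highest minus lowest cow mean (x axis, log2) for the 6 interferon-stimulated genes (red) and 73 other interferon pathway genes (grey, brightest probe set each). ISG15 has the lowest mean difference (-0.41), MX1 and ISG15 span 0.97 and 0.94 log2 between cows, and GBP5 lies furthest right at 1.55.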

How the data were processed

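RNA of 8 biopsies was hybridised to 8 single-colour arrays. The deposited table holds log2 values, which the authors computed by RMA, per the submitters' processing notes, with no version named. RMA corrects background, equalises the distributions of the arrays and summarises probes, which hides any change common to most genes. The log2 scale was read from the values, which lie between 4.98 and 14.43. Arrays give no read depth, and precision is limited by their number.

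Platform controls (112 of 24128 probe sets) were left out. Probe sets were named through GEO's platform annotation, which can be old: 13263 matched RefSeq by gene number and 0 symbols differed. No sequence or genome was used, so promoters were not examined.

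Tests were two-sided and used lmFit and eBayes of limma 3.58.1 (R 4.3.3) with state and cow, Benjamini-Hochberg adjustment over 24016 probe sets and a threshold of 0.05. Samples were paired by the replicate number in their titles, which was taken as the cow number. Cow was a block because each cow gave 1 full and 1 empty sample by the sample descriptions. Deviations from the mean of a state correlated within cows 1 to 4 at 0.457, 0.319, 0.598 and 0.525, and between different cows at -0.03 or below. Such deviations cancel out over the 4 cows of a state. Positive values within cows therefore push those between cows negative, and their sign is no separate evidence for the pairing. Cows were compared by the F-test of the cow terms and each against the others, adjusted together over 4 contrasts. These tests compare 4 animals with 2 arrays each. The model was tested on simulated data.

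Members and lists were chosen with earlier results of these data known. Named pathway genes were, per list, the 3 with the smallest p between cows and the 2 with the smallest p between states. The 10 genes most like the members had an SD of at least 0.3 log2. The dimmer GBP5 probe sets were added with their values known. Alternatives were leaving out cows, scaling, brighter probe sets, other priors, weights and blocks, a threshold of 0.1 and gene means.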

Additional observations from a re-analysis of the deposited data

Results flagged for a closer look

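None of the 18 groups of 4 values of the 6 members (full glands, empty glands and full minus empty differences) held a sample set apart from the other 3 by Dixon's criterion. Among the other named genes, 5 values stood apart, out of 111 groups examined in all (4.5%), where chance gives about 5%. IRF3 was low at 8.81 log2 in the full gland of cow 2. JAK1, the kinase of the interferon receptors, was high at 12.42 log2 in the full gland of cow 3. PARP14 was low at 8.30 log2 in the empty gland of cow 3, and HOXD10 was high at 7.74 log2 in the empty gland of cow 2. IGFBP6 was 0.60 log2 higher in full than in empty gland in cow 4, away from the other cows.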

How the results depend on the processing

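No member passed under any alternative run, for the comparison of full with empty gland (0 of 6 under 14 alternatives) or between cows (0 of 6 under 11). With no replicate block the count was 0 as well, and the block changed no call. The 4 contrasts of 1 cow with the others also kept a count of 0 under 3 alternatives. The smallest adjusted p of a member was 0.535 between states (without cows 2 and 4) and 0.101 between cows (with array weights, an alternative planned for the state comparison, which also called no member between cows). When cows were left out in turn, ISG15 ranged from -0.61 to -0.14, RSAD2 from -0.39 to -0.05, MX1 from -0.2729 to 0.1064, MX2 from -0.1139 to 0.000149 and IFI6 from -0.1882 to 0.0247. The sign of the full minus empty difference turned for MX1 without cow 1 (0.0642) or cow 2 (0.1064), for IFI6 without cow 1 (0.0247) or cow 2 (0.0029), for MX2 without cow 2 (0.000149) and for IFIT2 without cows 2 and 4 (0.0101). Without cows 2 and 4 it also turned for IL10RB (-0.0146), TLR3 (-0.1414), JAK1 (0.0012) and ICAM1 (-0.0555). The cause was not tested. Only 4 members remained among the brighter probe sets, where MX2 and IFIT2 gave no value. Medians of the 5 pathway lists moved by less than their spread between cows, within -0.05 to 0.09 log2. Between cows 13 to 248 probe sets passed at the threshold of 0.05 under the alternatives planned for that test, against 105. Gene means, where 51 of 9155 genes passed, are left out of this range. So is the threshold of 0.1, for which no count is given here. The counts were 208 after median centring, 248 with an intensity trend and robust prior, 202 with state left out, and 29, 131, 27 and 13 without cows 1 to 4 in turn. With array weights 286 passed.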

Other observations

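The 10 genes whose level followed the mean profile of the 6 members most closely, among 1701 genes with an SD of at least 0.3 log2, had Pearson correlations of 0.85 to 0.90 over the 8 arrays, which share 4 animals. They were NRP2, EBD, BIRC5, IGFBP6, PARP14, C1QB, SPARC, ECRG4, ROBO1 and HOXD10. Of these 1, PARP14, belongs to the interferon lists, which hold 73 of all 9155 genes. The share of list genes among the 1701 compared was not counted. PARP14 was at 8.54, 8.47, 8.29 and 9.22 log2 in the full glands of cows 1 to 4, against 8.87, 8.85, 8.30 and 8.86 log2 in the empty glands. EBD, the enteric beta-defensin of cattle, was at 6.14, 6.42, 5.91 and 7.92 log2 in full glands, against 6.55, 7.11, 5.86 and 6.25 log2 in empty glands. SPARC, a secreted matrix protein, had 11.94, 12.44, 11.88 and 12.77 log2 in full glands, against 12.33, 12.46, 11.82 and 12.22 log2 in empty glands. C1QB, a complement chain made by macrophages, was at 8.52, 8.65, 8.31 and 9.28 log2 in full glands, against 8.91, 8.96, 8.22 and 8.43 log2 in empty glands. The mean profile of the 6 members was itself highest in the empty gland of cow 2 (0.42) and the full gland of cow 4 (0.30). SPARC and C1QB, like MX1, were highest in these 2 arrays. MX1 is part of the profile and the other genes were chosen by it, so this is no separate result.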
